A study of Mus musculus with 4 samples.

Results

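Genes that mark Schwann cells, other glia and the neural crest were followed in cultures of melanocytes, the pigment cells of the skin, from mice that have or lack the aryl hydrocarbon receptor (AhR), a transcription factor activated by small organic ligands. The 8 genes were S100b, Mbp, Pmp22, Ngfr, Sox2, Foxd3, Gap43 and L1cam, out of 12393 genes named on the array. They were chosen by name, with earlier results of these data known. The array holds 19 probe sets for them, of which the one with the highest mean stands for each gene. The wild-type group was 2 female C57BL/6 mice. The AhR knockout group was 2 female mice of strain AhRtm1Bra, in which exon 2 of Ahr is deleted. In both groups epidermal cells of tail skin were grown in serum-free melanocyte medium for 6 to 8 weeks, and the labels give no ages and no further treatment. Each of the 4 arrays is an individual mouse, so n = 2 in each group and the replicates are biological. The cultures were passaged, and the labels describe visible pigment in their cells. The deletion is carried by the whole animal, so cells other than melanocytes in these cultures lack the same exon.

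Melanocytes and Schwann cells both come from the neural crest, a migratory population of the embryo, and some melanocytes descend from precursors that travel along nerves as Schwann cell precursors. The lineages therefore share many genes, among them Sox10 and S100b, and differ in others: mature Schwann cells make myelin proteins, while melanocytes make pigment. Foxd3 and Sox2 are transcription factors that hold crest or precursor cells in a multipotent state, and Foxd3 is known to repress the melanocyte regulator Mitf. Ngfr is a surface receptor for neurotrophins and is widely used to isolate crest cells, and L1cam and Gap43 act in adhesion and outgrowth of axons.

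AhR binds DNA with its partner ARNT at sites with the core GCGTG, so the bases before the start of the genes were searched for these letters on both strands (GCGTG or CACGC). RefSeq promoter windows of build GRCm38.p6 were matched by symbol for 6 of the 8 genes, S100b, Pmp22, Ngfr, Sox2, Foxd3 and L1cam, with 10 windows in all. The core was present in the 250 bases before the start in 5 of these 10 windows, belonging to Pmp22, Ngfr, Foxd3 and L1cam, while 28.2% of all 32851 windows hold it. The 2 windows of L1cam overlap, and Pmp22 holds the core in 1 of its 4. The windows of S100b, Ngfr and Foxd3 are shown because S100b and Ngfr had the largest differences in each direction and Foxd3 is the one transcription factor of the set that was bright enough to test. One window of L1cam, not shown, also holds 2 matches. Each is the run of 250 bases ending just before the start, 5′ to 3′ on the gene's strand, with the core in capitals. S100b lies at chr10:76253586-76253835 on the plus strand and has 0 matches. Ngfr lies at chr11:95587699-95587948 on the minus strand and has 1 match, beginning 157 bases before the start. Foxd3 lies at chr4:99656049-99656298 on the plus strand and has 2 matches, beginning 227 and 16 bases before the start.
S100b: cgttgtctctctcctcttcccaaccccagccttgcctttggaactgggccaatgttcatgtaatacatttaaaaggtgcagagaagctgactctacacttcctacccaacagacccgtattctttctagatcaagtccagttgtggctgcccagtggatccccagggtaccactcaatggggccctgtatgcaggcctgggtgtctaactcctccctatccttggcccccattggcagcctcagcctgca
Ngfr: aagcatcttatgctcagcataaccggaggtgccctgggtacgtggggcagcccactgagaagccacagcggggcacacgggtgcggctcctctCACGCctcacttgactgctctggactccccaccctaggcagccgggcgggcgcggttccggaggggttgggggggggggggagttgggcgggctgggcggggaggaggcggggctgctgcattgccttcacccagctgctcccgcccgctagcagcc
Foxd3: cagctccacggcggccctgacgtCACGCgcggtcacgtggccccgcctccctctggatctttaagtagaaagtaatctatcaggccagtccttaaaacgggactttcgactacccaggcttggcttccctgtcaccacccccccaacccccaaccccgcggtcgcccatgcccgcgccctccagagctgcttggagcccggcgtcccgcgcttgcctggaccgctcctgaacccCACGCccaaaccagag
These matches are letters only, and binding was not measured.

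The arrays differed in ways that touch what follows. Every array had 22690 probe sets, with median signals between 89.5 and 98.4. For Gapdh, signal at the 3′ end over signal at the 5′ end, a ratio that rises with shortened RNA, was 11.9 on AhR knockout 2 and lay between 1.98 and 2.85 on the other arrays. Ahr itself read 825 and 874 on the wild-type arrays, against 241 and 843 on the knockout arrays. Where its probes lie relative to the deleted exon was not analysed here. Cyp1b1, a known target of AhR, read 1216 and 1410 on the wild-type arrays, against 14.0 and 23.1 on the knockout arrays. Melanocyte markers were bright on all arrays, with Dct, a pigment enzyme, between 16814 and 32201.

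None of the 8 genes passed the test between genotypes, but S100b, Pmp22 and Ngfr had 95% intervals that lay to one side of 0. S100b and Pmp22 were higher in the knockout arrays and Ngfr was lower. Foxd3, Gap43 and L1cam had intervals that spanned 0, and Mbp and Sox2 were too dim to test. The test was limma on log2(signal + 16), with Benjamini-Hochberg adjustment over the 7436 genes in the top 60% by mean log2 signal and a threshold of 0.05. Differences are knockout minus wild type, and the added 16 makes those of dim genes smaller. Of the 6 tested genes 4 were higher and 2 lower, and 0 passed, where 0.82% of all tested genes did, 0.161% higher and 0.659% lower. With an unadjusted p under 0.05 there were 3, S100b, Pmp22 and Ngfr, 2 higher and 1 lower, where 20.4% of all tested genes reached that level, 7.61% higher and 12.8% lower. In S100b, Pmp22, Ngfr and Foxd3 the groups did not overlap, 3 higher and 1 lower, which also held for 55.1% of all tested genes, 28.6% higher and 26.5% lower. Without AhR knockout 2, which leaves 1 knockout array to separate from the others, the count was 7 of all 8 genes, where 80% of all 12393 genes did not overlap. The 6 had a median log2 difference of 0.44, beside 0.0071 over all tested genes. An exact permutation of 2 against 2 arrays cannot give a two-sided p below 0.33, so the p-values rest on the model, which borrows the spread of other genes.

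**Figure D1:**
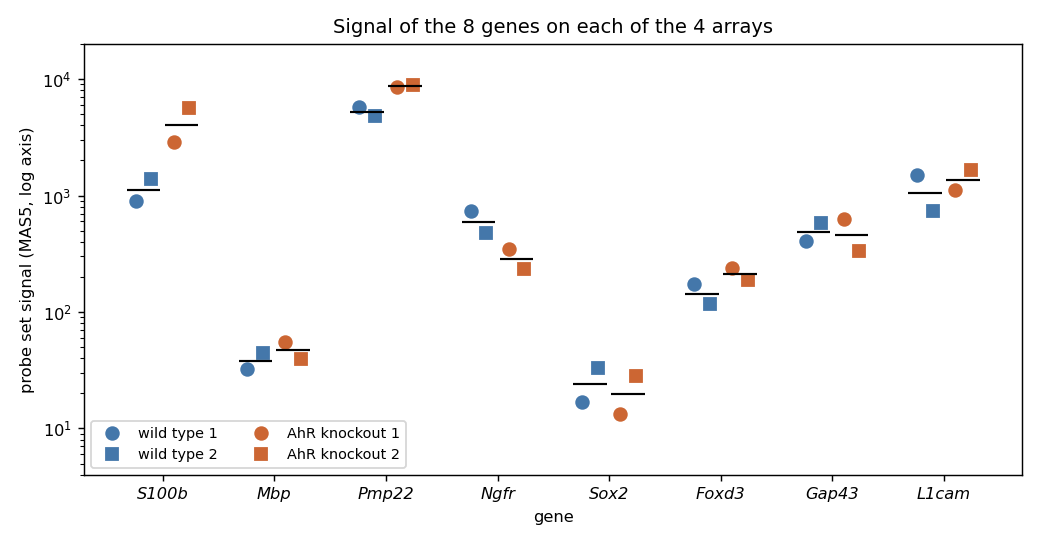
Signal of the chosen probe set of each gene on a log axis, with 1 point per array (circles are animal 1 and squares animal 2 of each group, blue wild type, orange AhR knockout). Black bars are group means on the log2(signal + 16) scale. S100b and Pmp22 lie higher and Ngfr lower on both knockout arrays, while the groups of Gap43, L1cam, Mbp and Sox2 overlap. Heights are not comparable between genes.

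S100b encodes a calcium-binding protein of glia that melanocytes also make. Its signal was 899.6 in wild type 1 and 1387 in wild type 2, and 2867 and 5682 in AhR knockout 1 and 2. Both knockout arrays lay above both wild-type arrays, and AhR knockout 2 was the highest. The fitted log2 difference was 1.84 ± 0.42 (SE), or 3.58-fold, with a 95% interval from 0.90 to 2.77 and adjusted p = 0.067 in limma. The arrays within a group were themselves apart, by 0.62 on the log2 scale in wild type and 0.98 in knockout. A further probe set of S100b read 431 and 564 on the wild-type arrays, against 895 and 2931 on the knockout arrays, in the same order, with a log2 difference of 1.69. Single arrays bore on the call. With AhR knockout 1 left out the difference was 2.33 with adjusted p = 6.222e-07, and with AhR knockout 2 left out it was 1.35 with adjusted p = 0.011, both past the threshold. Those fits called 1323 and 1000 genes over the whole table, against 61 with all 4 arrays, and assume that the lone knockout array varies like the others. Without wild type 1 the difference was 1.53 with adjusted p = 0.14, and without wild type 2 it was 2.15 with adjusted p = 0.098, neither past the threshold. AhR knockout 2, where S100b was highest, is the array with the Gapdh ratio of 11.9, and the part of RNA quality in the difference was not tested.

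In bulk cultures a higher share of cells of a type and more RNA per cell cannot be told apart. Of 9 tested melanocyte markers 8 were higher and 1 lower in knockout, and their median difference was 0.55 (log2), with 0 past the threshold in limma and 2 at an unadjusted p under 0.05. Tyr and Slc45a2, of the pigment pathway, differed by 1.20 and 1.52 and were highest on AhR knockout 1. Dct and Tyrp1, pigment enzymes, differed by 0.56 and 0.29 and were highest on AhR knockout 2, the array on which S100b was highest. The summed signal of the measured melanocyte markers was 70418 and 55151 on the wild-type arrays, against 82025 and 104559.6 on the knockout arrays. Endothelial markers had a median of -1.48 over 11 tested genes, and their summed signal was 23939 and 25841 on the wild-type arrays, against 19872 and 8970 on the knockout arrays. The part of these shifts in the difference of S100b was not tested.

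Pmp22 and Mbp encode myelin proteins. Pmp22, a membrane protein of compact myelin that many other cells also express, read 5756 and 4802 on the wild-type arrays, against 8601 and 8911 on the knockout arrays. Its knockout arrays were nearly equal, and both lay above both wild-type arrays. It differed by 0.73 ± 0.28 (SE) on the log2 scale, or 1.66-fold, with an interval from 0.11 to 1.36 and adjusted p = 0.19 in limma. The difference was 0.71 for AhR knockout 1 and 0.76 for AhR knockout 2 against the wild-type mean. Mbp, the major protein on the inner face of the myelin membrane, stayed below the signal filter on all 8 of its probe sets. The brightest of them read 32.5 and 44.7 on the wild-type arrays, against 55.5 and 39.3 on the knockout arrays, with overlapping groups and a log2 difference of 0.21. The highest reading of any Mbp probe set was 84.2, on AhR knockout 2. All 8 probe sets had a difference above 0, from 0.019 to 1.45, but at these levels the probe sets did not rank the arrays alike. For Mbp, these arrays give no usable level, and no test was run in the main setting.

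Ngfr encodes p75, the low-affinity receptor for neurotrophins. Its signal was 737 and 479.6 on the wild-type arrays, against 345 and 233 on the knockout arrays. The groups did not overlap, and the gap between the lowest wild-type and the highest knockout array was smaller than the gap between the wild-type arrays. The fitted difference was -1.03 ± 0.40 (SE) on the log2 scale, a 2.04-fold lower level, with an interval from -1.91 to -0.14 and adjusted p = 0.19 in limma. It was -0.76 for AhR knockout 1 and -1.29 for AhR knockout 2 against the wild-type mean. AhR knockout 2, where Ngfr was lowest, is the array with the Gapdh ratio of 11.9. The part of RNA quality in the difference of Ngfr was not tested. Without wild type 1 the fitted difference was -0.72, and without wild type 2 it was -1.33. The other probe sets of Ngfr were dim on every array, from 13.9 to 25.8 for one and from 2.14 to 9.28 for the other, and their differences were -0.39 and 0.32. The lower level of Ngfr therefore rests on a single probe set.

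**Figure D2:**
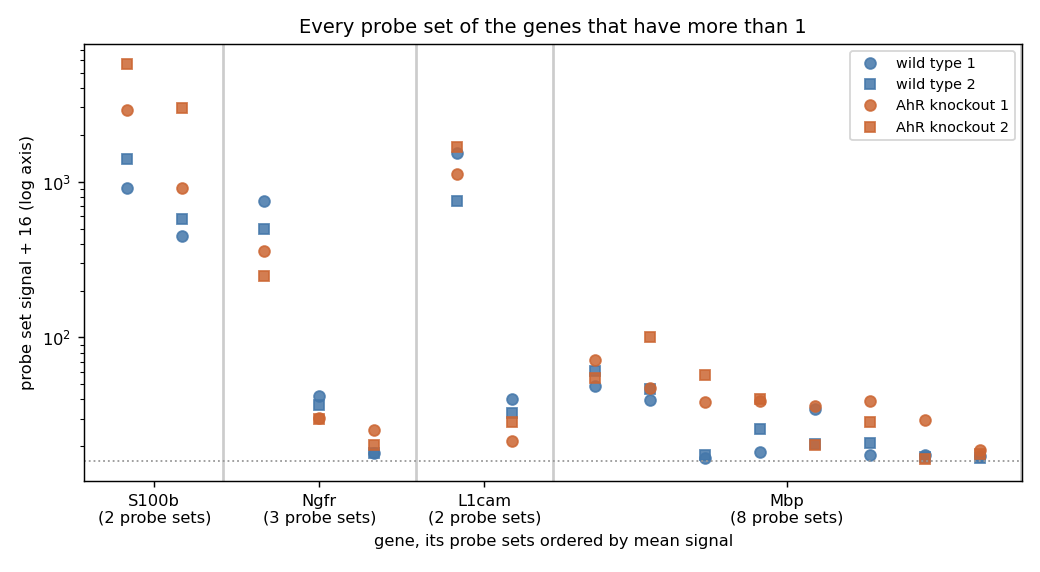
Signal plus 16 of every probe set of the 4 genes with more than 1, on a log axis, with points per array as before. The dotted line is a signal of 0. The 2 probe sets of S100b order the arrays alike, Ngfr and L1cam are each bright on 1 probe set, and all 8 of Mbp lie low.

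Foxd3 and Sox2 are the transcription factors of the set. Foxd3 read 173 and 117 on the wild-type arrays, against 239 and 189 on the knockout arrays. Both knockout arrays lay above both wild-type arrays, although AhR knockout 2 and wild type 1 were close. The fitted log2 difference was 0.53 ± 0.37 (SE), with an interval from -0.30 to 1.35 and adjusted p = 0.44 in limma. Mitf, which Foxd3 is known to repress, was added after values were seen and differed by -0.41. Mitf is itself on the list of melanocyte markers, of which 9 were tested, 8 higher and 1 lower in knockout. A link between Foxd3 and Mitf was not tested. Sox2, a factor of stem and precursor cells, of immature Schwann cells and of Merkel cells, read 17.0 and 32.8 on the wild-type arrays, against 13.2 and 28.1 on the knockout arrays, below the filter everywhere. Its groups overlapped, and the arrays of a group were further apart than the groups were, with a difference of -0.16. Of 3 tested Merkel cell markers, Krt20 differed by -1.37, Krt8 by 1.38 and Krt18 by 0.047.

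Gap43 and L1cam are the genes of axon growth and adhesion. Gap43, a membrane protein of growing axons and of non-myelinating Schwann cells, read 409.9 and 580.4 on the wild-type arrays, against 631 and 337 on the knockout arrays. The wild-type arrays lay between the knockout arrays, with a log2 difference of -0.076 ± 0.42 (SE), an interval from -1.01 to 0.86 and adjusted p = 0.93 in limma. The difference was above 0 in AhR knockout 1, at 0.36, and below 0 in AhR knockout 2, at -0.51, and its sign turned under quantile normalization, to 0.068. L1cam, a cell adhesion molecule of the immunoglobulin family, read 1501 and 731 on the wild-type arrays, against 1108 and 1645 on the knockout arrays. Wild type 2 was the low array, and wild type 1 lay between the knockout arrays. The fitted log2 difference was 0.36 ± 0.44 (SE), with an interval from -0.61 to 1.33 and adjusted p = 0.66 in limma. A second probe set of L1cam read 24.0 and 17.0 on the wild-type arrays, against 5.78 and 12.6 on the knockout arrays, a difference of -0.54. With the mean of both probe sets, and without wild type 2, the sign of L1cam turned, to -0.090 and -0.15. The intervals of Gap43 and L1cam hold 0 and reach -1.01 and 1.33, so sizeable differences of either sign were not resolved.

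**Figure D3:**
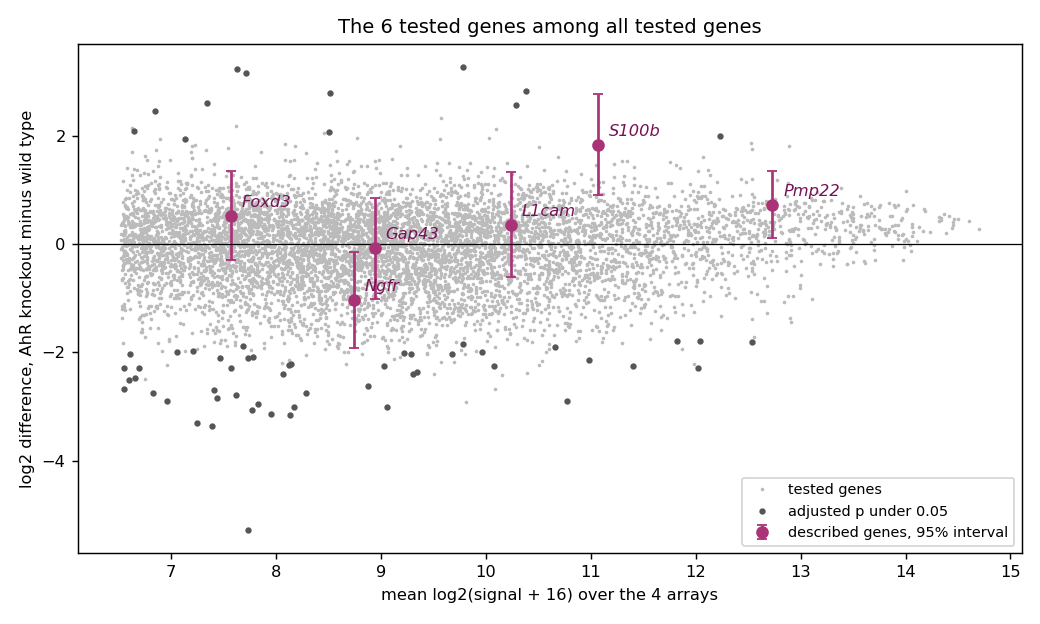
Log2 difference, AhR knockout minus wild type, against mean log2(signal + 16) for the 7436 tested genes (grey; dark where the adjusted p was under 0.05). The 6 tested genes are shown with 95% intervals from limma. S100b sits near the upper edge of the genes of its brightness, at 1.84, and Ngfr at -1.03 is below 0, while Gap43 and L1cam sit inside the bulk.

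The other genes of these pathways were read against the shares given above for all tested genes, 0.82% past the threshold and 20.4% at an unadjusted p under 0.05. Counts with an array left out stand against other shares of all tested genes past the threshold: 17.8% without AhR knockout 1, 13.4% without AhR knockout 2, 2.21% without wild type 1 and 0.363% without wild type 2. Genes of Schwann cells and their precursors went both ways. Of 27 myelin and Schwann cell genes, 20 were measured and 12 of these were below the filter, among them Mag, Mog, Gjb1 and Mobp. Of the 8 tested, 5 were higher and 3 lower, and their median difference was 0.38 (log2). In limma 0 passed, with 3 at an unadjusted p under 0.05, and 2 passed without AhR knockout 1 and 2 without AhR knockout 2. Aspa, which breaks down N-acetylaspartate, differed by 1.23 (adjusted p = 0.15), and Dhh, the hedgehog signal that Schwann cells send to the nerve sheath, by 1.13 (adjusted p = 0.19). Dhh read 139.7 and 152 on the wild-type arrays, against 502 and 226 on the knockout arrays. Plekhb1 differed by 0.93, and Cd9, a tetraspanin of myelin and many other membranes, by -0.92, with 1295 on AhR knockout 2 against 4253 to 4648 elsewhere.

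Genes of immature Schwann cells and glial precursors had a median of 0.76 over 9 tested members, 5 higher and 4 lower. In limma 0 passed, with 6 at an unadjusted p under 0.05, and 4 passed without AhR knockout 1, 3 without AhR knockout 2 and 1 without wild type 1. Sox10, the transcription factor that both Schwann cells and melanocytes need, read 2134 and 998 on the wild-type arrays, against 3303 and 5559 on the knockout arrays. Its knockout arrays lay above both wild-type arrays, with AhR knockout 2 highest as for S100b, and it differed by 1.54 ± 0.44 (SE) with adjusted p = 0.11. Matn2, a matrix protein of nerve and other tissues, differed by 1.05 and also had its highest reading on AhR knockout 2. Nes and Cdh2 went the other way. Nes, the intermediate filament nestin of precursor cells, read 319 and 285 on the wild-type arrays, against 38.0 and 136 on the knockout arrays, a difference of -1.81 with adjusted p = 0.094. Cdh2, N-cadherin, differed by -1.10. The knockout arrays differed here, since taken on AhR knockout 1 alone the median was 0.073, and on AhR knockout 2 alone 0.88.

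Neural crest regulators had a median of -0.30 over 11 tested members, 5 higher and 6 lower. On AhR knockout 1 alone the median was -0.023, and on AhR knockout 2 alone -0.020. Sox10, described above, is also on this list and had its smallest p, with a difference of 1.54. In limma 0 passed, with 3 at an unadjusted p under 0.05, and 4 passed without AhR knockout 1, 1 without AhR knockout 2 and 1 without wild type 1. Mycn, a Myc-family factor of dividing crest cells, read 242 and 366 on the wild-type arrays, against 139 and 88.2 on the knockout arrays, a difference of -1.30 with adjusted p = 0.12. Ets1 differed by -0.89 and Id2, an inhibitor of helix-loop-helix factors, by 0.70. The other 12 measured members, among them Twist1, Msx1, Zic1 and Pax7, were below the filter.

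Neurotrophins, Trk receptors and partners of p75 were read as the pathway of Ngfr. Over 10 tested genes the median was -0.23, 7 being lower and 3 higher, and in limma 0 passed, with 1 at an unadjusted p under 0.05. Without AhR knockout 1 there were 3 calls and without AhR knockout 2 there was 1. Adam17, a sheddase that cuts p75, read 548 and 798 on the wild-type arrays, against 234 and 263 on the knockout arrays, a difference of -1.36 with adjusted p = 0.10. Maged1, which binds the inner part of p75, had 2273, 2236 and 2226 on the first 3 arrays and 474 on AhR knockout 2, so its difference of -1.11 came from that array. Prdm4 differed by -0.92 and Sort1, the co-receptor sortilin, by 0.54. Neuregulins and ErbB receptors are the main growth signal of Schwann cells. Their list, which also holds Adam19 and Bace1, had 5 tested members with a median of -0.14. No neuregulin was among those tested, and the receptor Erbb3 stood at the median. In limma 0 of the 5 passed, with 1 at an unadjusted p under 0.05 and 1 passing without AhR knockout 1. Adam19, a protease of neuregulin, differed by -1.10, Bace1 by -0.50, Egfr by 0.55 and Erbb2 by 0.29.

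L1 family members and partners had a median of -0.30 over 12 tested genes, 3 higher and 9 lower. In limma 0 passed, with 3 at an unadjusted p under 0.05, and 2 passed without AhR knockout 1 and 6 without AhR knockout 2. The list was lower on AhR knockout 1, with a median of -0.66, than on AhR knockout 2, with 0.093. Itgb1, the integrin beta 1 chain, read 1054 and 1606 on the wild-type arrays, against 412 and 383 on the knockout arrays, a difference of -1.67 ± 0.38 (SE) with adjusted p = 0.067. Adam10, which sheds L1cam, differed by -1.39 and Sema3a, a repulsive axon signal, by -1.14, while Ank1 differed by 0.57. Growth-associated and growth cone proteins had the lowest median of the 9 lists, -1.00 over 9 tested genes, with 7 lower and 2 higher. In limma 0 passed, with 5 at an unadjusted p under 0.05, and 7 passed without AhR knockout 1 and 3 without AhR knockout 2. On AhR knockout 1 alone the list's median was -0.35, and on AhR knockout 2 alone -0.99. Dpysl3, a cytoskeletal protein of growth cones, read 2095 and 2659 on the wild-type arrays, against 975 and 612 on the knockout arrays, a difference of -1.59 with adjusted p = 0.075. Marcks, a membrane protein regulated like Gap43 by protein kinase C, differed by -1.00, Crmp1 by -1.19 and Atf3, an injury-induced factor, by -1.23. Gap43 itself differed by -0.076.

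Relatives of Pmp22 in its protein family went both ways, 2 higher and 3 lower, with a median of -0.78. On AhR knockout 1 alone the median was -0.20, and on AhR knockout 2 alone -1.60. Tmem47 read 905 and 2356 on the wild-type arrays, against 217 and 326 on the knockout arrays, a difference of -2.39 ± 0.49 (SE) with adjusted p = 0.053. Emp1, an epithelial membrane protein of the same family, read 6369 and 8390.3 on the wild-type arrays, against 3088 and 1154 on the knockout arrays, a difference of -1.94 with adjusted p = 0.069. Emp3 differed by 1.16, with wild type 2 low at 1626 against 6086 to 7186 on the other arrays. Perp differed by -0.78, with 83.3 on AhR knockout 2 against 267 to 304 on the other arrays. In limma 0 of the 5 tested relatives passed, with 3 at an unadjusted p under 0.05, and 3 passed without wild type 1, 4 without AhR knockout 1 and 3 without AhR knockout 2. Of 17 SoxB, Foxd and stem cell factors all were measured and 14 were below the filter. The 3 tested were Klf4 at -0.80, Sall4 at -0.16 and Fgf4 at 0.10, with 0 passing in limma and 0 at an unadjusted p under 0.05.

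**Figure D4:**
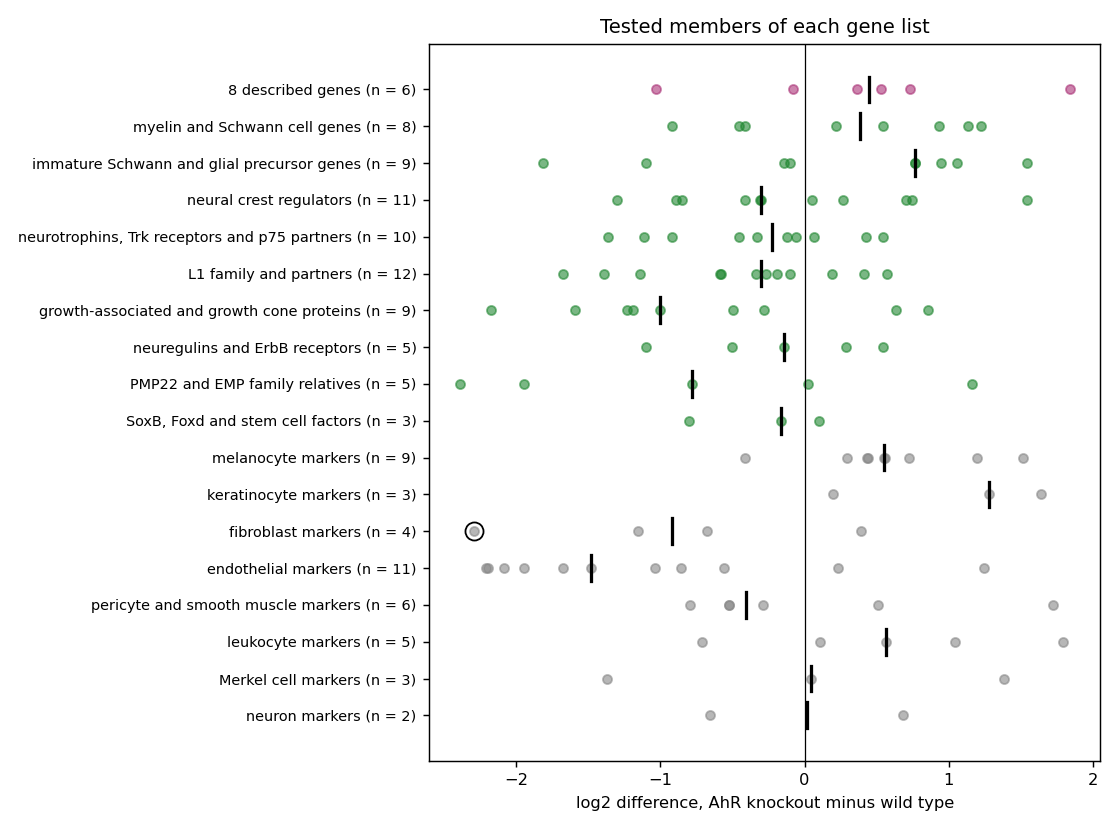
Log2 difference, AhR knockout minus wild type, of the tested genes of each list, 1 point per gene, with the list's median as a black bar and a ring around genes with adjusted p under 0.05. The described genes run from -1.03 to 1.84, and 1 ringed point, among the fibroblast markers, appears in the whole plot.

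Markers of other cells that could be in the cultures were read beside these genes. Keratinocyte markers were high on AhR knockout 1 alone, where their summed signal was 1560 against 264, 308 and 384 elsewhere, and Krt6a, Krt14 and Krt5 read 481, 539 and 305 there. Krt10 was highest on AhR knockout 2, at 157. Fibroblast markers had a median of -0.92 over 4 tested genes. Col3a1, a fibroblast collagen, fell from 372 and 439 to 95.1 and 50.5, a difference of -2.29 with adjusted p = 0.039 in limma, while Fbln2 differed by -1.16, Thy1 by -0.68 and Dcn by 0.39. Of 11 tested endothelial markers 9 were lower and 2 higher. Emcn differed by -2.21, Cd34 by -2.19 and Tek by -1.67, while Egfl7 differed by -0.56 and lay 0.15 above the wild-type mean on AhR knockout 1. The higher ones, added after values were seen, were Cldn5 at 1.24 and Eng at 0.23. Pericyte and smooth muscle markers had a median of -0.40 over 6 tested genes, with Cspg4, which melanocytic and glial precursors also make, at 1.72 with adjusted p = 0.058, Pdgfrb at 0.51, Acta2 at -0.52 and Tagln at -0.79. Leukocyte markers had a median of 0.56 over 5 tested genes, 4 higher and 1 lower. Lyz2 differed by 1.79, C1qb by 1.04 and Csf1r by 0.56, while Cd68 differed by -0.71, with 208 on AhR knockout 2 against 578 to 819 elsewhere. Among neuron markers 11 of 13 were below the filter, and the 2 tested, Tubb3 and Uchl1, differed by 0.68 and -0.65. Of the 8 measured Merkel cell markers 5 were below the filter. No marker was listed at 0. The part of these cell types in the differences of S100b, Pmp22 and Ngfr was not tested.

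The tested genes nearest in pattern to each described gene were found by the root mean square distance between their 4 log2 values, each gene centred on its own mean. S100b was nearest to Lyz1, a lysozyme nearly identical to Lyz2, at 0.12 on the log2 scale, with 1883 and 3044 on the wild-type arrays, against 7448 and 12299 on the knockout arrays. Pbk and H2ax followed at 0.25 and 0.27. The genes nearest to Pmp22 were Syce2, Rangrf and Med25, all within 0.027. Pde2a, a phosphodiesterase, was nearest to Ngfr at 0.043, then Msh6 and Bms1. Foxd3 lay closest to Alkbh4, Ppie and Ciao2b, Gap43 to Unc5b, Nfia and Prss16, and L1cam to Elovl7, Tnks1bp1 and Pnpla7. With 4 arrays and 7436 genes, these names describe the arrays only. Of the 6 genes, S100b was the farthest from its nearest gene.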

How the data were processed

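The deposited values are linear signal intensity per probe set, which the authors computed with MAS5 (no version stated) according to the submitters' processing notes. Detection calls and filters are not known here. RNA was amplified and labelled with biotin before hybridisation, per the labels' protocols. On every array the mean of all values, without the 2% at each end, was 499.9, so a shift shared by most transcripts is not visible. All 4 columns were used and 0 were left over.

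Of 22690 probe sets, 20380 had 1 gene symbol, 691 several and 1555 none, beside 64 controls. Symbols were updated through RefSeq (GRCm38.p6), where 20351 matched. The probe set with the highest mean log2(signal + 16) stood for a gene. The top 60% of genes by that mean were tested with limma 3.58.1 (lmFit, eBayes with trend) in R 4.3.3. The method was tried on simulated independent arrays of equal spread, which do not cover an outlying array or correlated deviations. Arrays carry no count depth, and their number limits the precision. Figures used matplotlib 3.10.9 in Python 3.11.15.

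The genes and lists were chosen with earlier results of these data known. All 8 genes are named, and of each list those past the threshold and up to 4 of smallest p; of each marker list, the 2 brightest and up to 2 of smallest p. Mitf, Cldn5, Eng and the examples of dim genes were added after values were seen. Alternatives were quantile normalization, equal medians, pseudocounts of 1 and 64, no filter or 40%, other probe set rules, eBayes without trend or robust, the title number as a block, and each array left out. A choice by mean linear signal was added after the data were seen.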

Additional observations from a re-analysis of the deposited data

How the results depend on the processing

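Of the 8 genes 0 passed with all 4 arrays, 2 (S100b and Ngfr) with the title number as a replicate block, and from 0 to 2 with each array left out. Under the block 1371 of all 7436 tested genes passed, against 61 in the main fit. With it S100b had adjusted p = 9.211e-06 in limma and Ngfr 0.021. The titles use numbers 1 and 2 for each genotype without stating a pairing, and deviations of same-numbered arrays correlated at 0.36 across genes, which 2 pairs cannot settle. Genes that passed numbered 61, but 15 under quantile normalization, 14 with equal medians, 98 with a pseudocount of 64, 1 without a filter (1866 at an unadjusted p under 0.05), 4 with the top 40%, 29 with every probe set, 1371 with the block, and 27 to 1323 with an array left out. The cause was not tested. The count of genes with separate groups was 4, and 5 to 7 with an array left out, where 67.4% to 80% of all genes separated against 50% with 4 arrays. Calls with an array left out ran from 0 to 6 for the L1 family, 0 to 4 for Pmp22 relatives, 0 to 7 for growth-associated proteins, 0 to 4 for immature Schwann genes, 0 to 2 for myelin genes, 0 to 4 for crest regulators, 0 to 1 for neuregulins and 0 to 3 for p75 partners. S100b kept its direction under all 16 alternatives, from 1.35 to 2.33, as did Pmp22 from 0.54 to 0.86 and Foxd3 from 0.28 to 0.78. The filter, eBayes and block settings leave a difference unchanged by design, so those alternatives could not turn a sign. Other probe set rules could not change Pmp22 or Foxd3, which have a single probe set. Without a filter S100b had adjusted p = 0.20 in limma. Ngfr lay between -1.33 and -0.36, and Sox2 between -0.46 and 0.14. Gap43 was -0.51 without AhR knockout 1 but turned to 0.068 under quantile normalization, 0.17 without wild type 2 and 0.36 without AhR knockout 2, and L1cam to -0.090 with the mean of probe sets and -0.15 without wild type 2, with 0.87 without wild type 1. Mbp moved to 0.56 with the mean of probe sets. Signals below the filter limit what Mbp, Sox2 and the dim list genes can show.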

Other observations

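Of the listed genes, 116 lay below the signal filter, and 11 of them had groups that did not overlap and differed at least 2-fold, 8 lower and 3 higher in knockout. That is 9.48% of them, beside 5.97% of all 4957 genes below the filter, of which 179 were higher and 117 lower. They were chosen after their values were seen, and none had an adjusted p under 0.05 when all genes were tested. Nefl and Nefm, neurofilament chains of axons, read 157 and 147 in wild type against 30.6 and 28.1 in knockout, and 33.9 and 44.5 against 3.90 and 21.8. Nefl passed in limma, with adjusted p = 0.048, when genes were filtered by mean linear signal, and had 0.19 without a filter. Bdnf, a neurotrophin that binds p75, read 47.0 and 74.6 on the wild-type arrays, against 4.33 and 7.81 on the knockout arrays, a log2 difference of -1.78. Ank3, an ankyrin that anchors L1 family proteins, read 121 and 113 against 30.0 and 46.4. Itga4, an integrin of migrating crest cells, differed by -1.43, and Foxd1 by -1.09. Col1a1 and Pdgfra, of fibroblasts, differed by -1.58 and -1.54. Cntn2, a contactin of axons, differed by 1.10, Sox1 by 1.17 and Rbfox3 by 1.02, all dim. Probe sets this dim can carry signal from other transcripts, which was not tested.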
